A study of Drosophila melanogaster with 7 samples.

Results

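Cell cycle and DNA replication genes were followed in eye imaginal discs of Drosophila melanogaster with a lost or an activated sevenless (sev) gene, whose receptor tyrosine kinase makes a precursor cell become the R7 photoreceptor. The set was a list of 45 genes, found by mapping the probes of the deposited value table to gene symbols and keeping those with a value on at least 1 array. That left 31 members of 5971 genes with a value, namely 18 of 25 S phase genes and 13 of 20 mitotic genes. Of the other 14, Orc1 and CycE were named by probes that had no value on any array. The remaining 12 (Orc6, geminin, Mcm7, RnrS, dap, CycA, Cdk1, stg, polo, aurA, BubR1 and pav) were named by no single-gene probe in the annotation used and were not analysed here. Of the 33 listed genes with a named probe 93.9% had a value, against 49.5% of all named genes.

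RNA came from eye discs of the third larval instar, staged with bromophenol blue, in a w1118 genetic background. The genotype sevd2;+;+ carries a known loss-of-function allele and was hybridised on 4 arrays, with both of its 2 RNA extractions run as dye swaps. The genotype sevS11 carries an activated form of the receptor and was hybridised on 3 arrays, of which 2 form a dye swap of extraction 1 and the last holds extraction 2 in Cy5. Neither the promoter that drives the sevS11 form nor the number of larvae per extraction is given in the labels. Each array set one genotype against a common pool of w1118;+;+ discs. For that pool the labels disagree on the tissue, since the source and protocol fields name eye discs and a free-text field names wing discs. Relative to the pool, 12 tested eye-field genes other than sev (such as ey, eya, so and ato) had log2 ratios between -0.04 and 0.53 in sevd2 and between -0.25 and 0.51 in sevS11. Only 3 wing-disc genes could be tested, so the tissue was not checked further.

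Values are log2 ratios, likely of mutant over reference, so that 1 unit is a doubling. The direction is likely rather than stated: the deposited ratios of swapped pairs correlated at 0.777 to 0.939, and sev lay at 3.14 ± 0.54 (SE, n = 2 extractions) in sevS11 against -0.36 ± 0.54 in sevd2. The sevS11 array of extraction 2 correlated at 0.688 and 0.633 with those of extraction 1, and at 0.486 to 0.653 with the sevd2 arrays. Array values are printed as deposited, while means and tests use extractions, after subtracting an estimated dye effect from the unswapped sevS11 array. The arrays held values for 4701 to 7009 probes, and their small number limits the precision. Ratios spread more widely in sevS11, with a median absolute ratio per array of 0.206 to 0.288 against 0.117 to 0.168 in sevd2. Errors are standard errors of a limma fit over 3586 genes with a value from every extraction, and n is always 2 extractions per genotype. The fit takes 1 spread per gene from both genotypes together, so a gene has the same error in each. For sev the extractions stood at -0.32 and -0.41 in sevd2 but at 1.85 and 4.43 in sevS11, after the dye correction. Over all tested genes the median gap between extractions was 0.258 in sevS11 and 0.089 in sevd2. A gene passed at a Benjamini-Hochberg adjusted p under 0.05 over all 3586 genes. Of the members 22 met this requirement and were tested, and 9 were not. In whole discs, a smaller share of dividing cells and less RNA per dividing cell cannot be told apart.

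In the eye disc, cells ahead of the morphogenetic furrow divide without synchrony, arrest in G1 as the furrow passes and then either begin to differentiate or go through 1 more round of division, the second mitotic wave. Entry into S phase depends on cyclin E with Cdk2 and on the E2F factors, which are held back by Rbf and switch on replication genes. Entry into mitosis depends on Cdk1 with the mitotic cyclins after activation by the phosphatase String, and exit depends on the anaphase-promoting complex. R7 precursors arise from cells that have passed through that second wave, which is the setting in which sev acts.

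Few cell cycle genes passed a test against the wild-type pool or between the genotypes, and the counts were near the shares of all genes. In sevS11, 1 of 22 members fell, the securin gene pim, and 0 rose, where 5.77% of all tested genes passed (2.18% higher and 3.6% lower). In sevd2, 0 of 22 passed, where 0.0837% of all genes did (0.0558% higher and 0.0279% lower). In the direct comparison of sevS11 with sevd2, 0 of 22 passed, where 0.0558% of all genes did. With so few of all genes passing in sevd2 and in the difference, a count of 0 there says little about the members. At an unadjusted limma p under 0.05 the members numbered 5 in sevS11, 2 in sevd2 and 1 in the difference, where 25.3%, 9.76% and 12.7% of all genes lay. The median absolute ratio of the members was 0.113 in sevS11 and 0.127 in sevd2, against 0.173 and 0.099 over all tested genes, so it was below that of all genes in sevS11 and above it in sevd2. With 2 extractions against 2, a two-sided exact permutation test over extractions cannot give a p below 0.333, so none is given for single values.

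**Figure D1:**
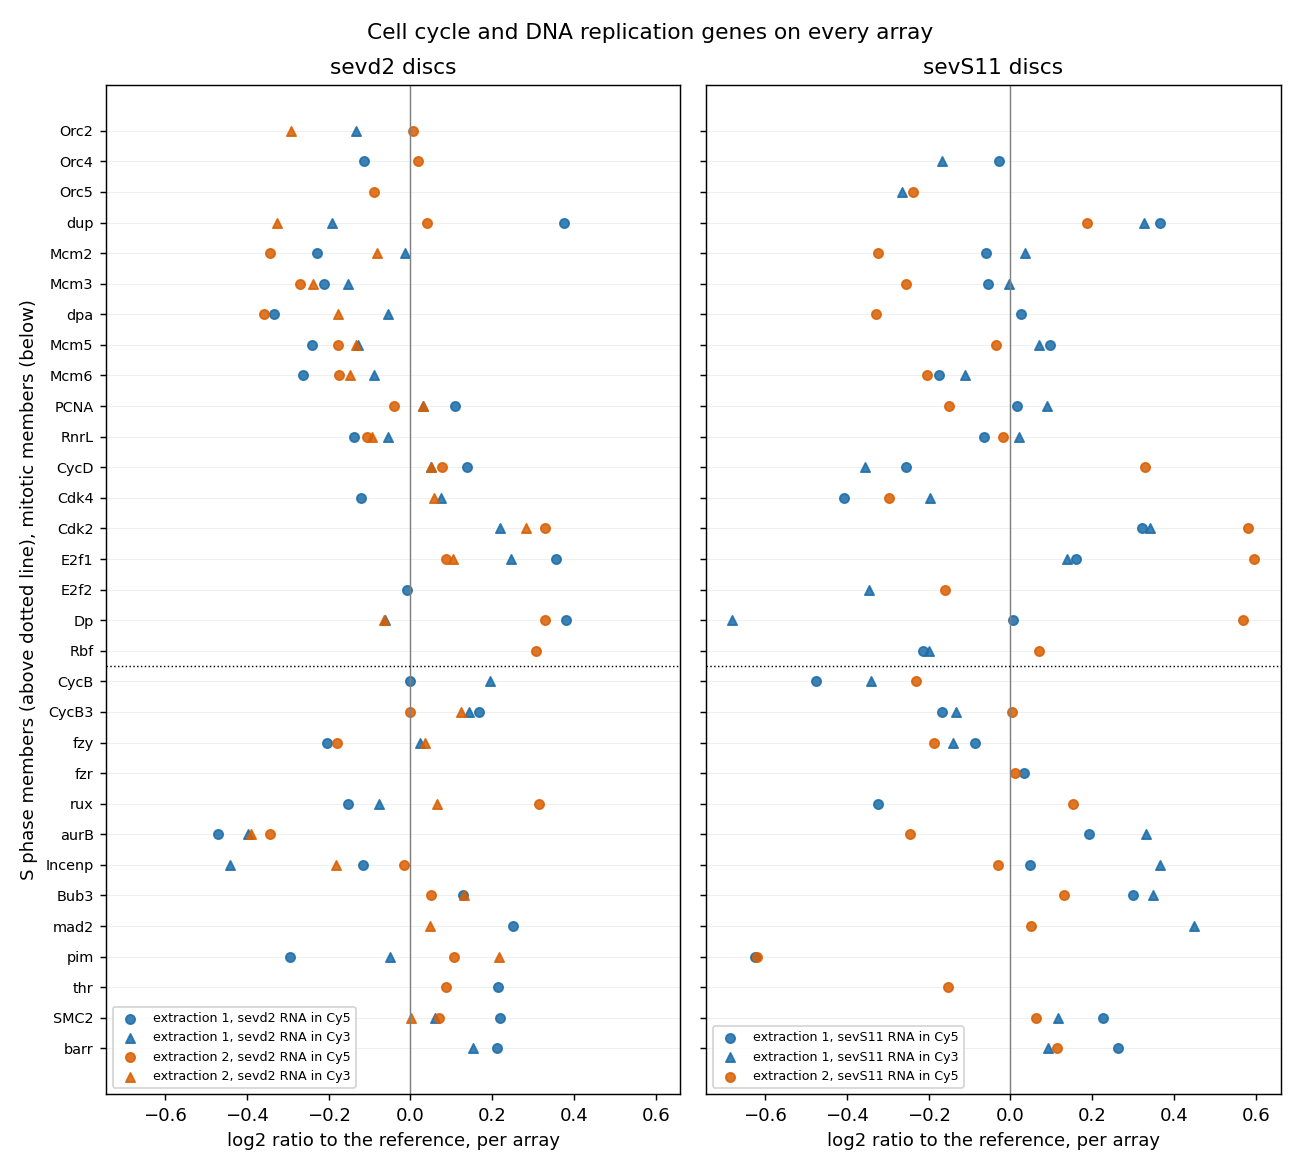
Log2 ratio to the reference (x axis) of the 31 cell cycle and replication genes with a value, by gene (y axis), in sevd2 discs (left) and sevS11 discs (right). Each point is 1 array, colour marks the extraction, circles mark mutant RNA in Cy5 and triangles mutant RNA in Cy3; all 5 MCM genes lie below 0 on every sevd2 array, and pim lies at -0.62 on both sevS11 arrays with a value.

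The origin recognition complex and its partners mark the sites where replication can start. The gene dup encodes the Cdt1 protein, which loads the replicative helicase onto those sites. On the sevd2 arrays dup stood at 0.37 and -0.19 for extraction 1 and at 0.04 and -0.32 for extraction 2. On the sevS11 arrays it stood at 0.36 and 0.33 for extraction 1 and 0.19 for extraction 2, or 0.02 after the dye correction. All 3 sevS11 arrays thus lay above 0, while the sevd2 arrays were above 0 with mutant RNA in Cy5 and below 0 with it in Cy3. Its means were 0.18 ± 0.12 in sevS11 and -0.025 ± 0.12 in sevd2, and the difference of 0.21 had a 95% interval of -0.22 to 0.64. Of the recognition complex subunits, Orc2 had values only in sevd2 (-0.13, 0.01 and -0.29). Orc4 had -0.11 and 0.02 in sevd2 and -0.03 and -0.17 in sevS11 extraction 1. Orc5 stood at -0.09 on 1 sevd2 array and at -0.26 and -0.24 in sevS11. None of these 3 could be compared between the genotypes. Their mean ratios, where both extractions of a genotype had a value, were -0.14 ± 0.10 for Orc2 and -0.048 ± 0.10 for Orc4 in sevd2 and -0.25 ± 0.11 for Orc5 in sevS11. None passed (limma on all genes with both extractions of the genotype, adjusted p of 0.716, 0.930 and 0.256).

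The MCM proteins form the ring that unwinds DNA at the replication fork. All 5 measured subunits lay below 0 on every sevd2 array with a value, where 21.9% of all tested genes did so, and none of them passed. Mcm3 stood at -0.21 and -0.15 in sevd2 extraction 1 and at -0.27 and -0.24 in extraction 2. The Mcm4 gene, dpa, stood at -0.33, -0.05, -0.36 and -0.18 on the same arrays. Both genes kept 1 sign over 4 arrays, with dpa lower where mutant RNA was in Cy5. Mcm2 ranged from -0.34 to -0.01, Mcm5 from -0.24 to -0.13 and Mcm6 from -0.26 to -0.09 over the 4 sevd2 arrays. The sevd2 means ran from -0.23 ± 0.11 for dpa, through -0.22 ± 0.10 for Mcm3, to -0.17 for Mcm2, Mcm5 and Mcm6, with unadjusted limma p of 0.0733 to 0.162 and an adjusted p of 0.571 or more.

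In sevS11 the MCM genes were lower in extraction 2 than in extraction 1. Each gap was below 0.258, the median gap between the sevS11 extractions over all tested genes. In extraction 1 the MCM ratios lay between -0.14 and 0.08 with a median of -0.013. In extraction 2 they lay between -0.23 and -0.01 with a median of -0.214. Mcm2 stood at -0.06 and 0.03 on the pair of extraction 1 and at -0.32 on the array of extraction 2. Mcm6 differed least, at -0.18, -0.11 and -0.20. The Mcm5 ratios were 0.10, 0.07 and -0.04, and those of dpa were 0.03 and -0.33, with no value on the Cy3 array. No MCM gene passed in sevS11, where the means ran from -0.15 ± 0.09 for Mcm6 to 0.035 ± 0.09 for Mcm5. All 5 differences between the genotypes lay above 0, from 0.017 for Mcm6 to 0.20 ± 0.13 for Mcm5, and none passed. For Mcm5, which had the largest of them, the 95% interval was -0.12 to 0.53.

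PCNA, the sliding clamp that holds DNA polymerase on its template, lay close to the reference on every array. Its ratios were 0.11, 0.03, -0.04 and 0.03 in sevd2 and 0.01, 0.09 and -0.15 in sevS11. The groups overlapped, and the difference was -0.075 with a 95% interval of -0.43 to 0.28. RnrL, the large subunit of ribonucleotide reductase, was below 0 on the 4 sevd2 arrays, between -0.14 and -0.05. It stood at -0.06, 0.02 and -0.02 in sevS11. Its means of -0.098 ± 0.09 in sevd2 and -0.0050 ± 0.09 in sevS11 did not differ beyond their error, the interval of the difference being -0.23 to 0.41.

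Among the kinases of the G1 to S step, Cdk2, the partner of cyclin E, was above 0 on all 6 arrays with a value. In sevd2 it stood at 0.22 on the single array of extraction 1 and at 0.33 and 0.28 on those of extraction 2. In sevS11 it stood at 0.32 and 0.34 for extraction 1 and at 0.58 for extraction 2. Extraction 2 of sevS11 was the highest of the 4 extractions. The means were 0.45 ± 0.11 in sevS11 (limma, adjusted p = 0.072, 3 of 3 arrays above 0) and 0.26 ± 0.11 in sevd2 (adjusted p = 0.510, 3 of 3 arrays above 0), and neither passed. Both are ratios to the same pool, so the shared sign is not independent evidence. In a fit of the 7 single arrays with the extraction as a random block, Cdk2 passed in sevS11 (0.44, limma adjusted p = 0.0328). In that fit 395 of all genes passed in sevS11.

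Cdk4, the partner of cyclin D, was below 0 on all 3 sevS11 arrays, at -0.41, -0.20 and -0.30. It stood at -0.12, 0.07 and 0.06 in sevd2. The extractions of the genotypes did not overlap, yet neither the sevS11 mean of -0.25 ± 0.10 (limma, adjusted p = 0.180) nor the difference of -0.27 ± 0.14 (adjusted p = 0.469) passed. This gene had 2 probes with values, and they were not measured on the same arrays. On sevd2 replicate 1 they read -0.29 and 0.05, and on sevS11 replicate 3 they read -0.45 and -0.14. CycD, the cyclin itself, was between 0.05 and 0.14 on the 4 sevd2 arrays. In sevS11 it stood at -0.26 and -0.35 for extraction 1 and at 0.33 for extraction 2, so its mean of -0.0062 ± 0.15 averaged extractions of opposite sign.

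The E2F group holds the activator E2f1, the repressor E2f2, their shared partner Dp and the pocket protein Rbf. E2f1 was above 0 on all 7 arrays, where 25.9% of all tested genes were above 0 on every sevd2 array and 24.5% on every sevS11 array. Both genotypes were set against the same pool, so signs shared between them, here and for other genes, are not independent. The E2f1 ratios were 0.36, 0.25, 0.09 and 0.10 in sevd2 and 0.16, 0.14 and 0.60 in sevS11. The array of sevS11 extraction 2 stood apart from the others, and the means of 0.36 ± 0.13 in sevS11 (limma, adjusted p = 0.168) and 0.20 ± 0.13 in sevd2 (adjusted p = 0.724) did not pass. Dp varied most among the members. It stood at 0.38 and 0.33 in sevd2 with mutant RNA in Cy5 but at -0.06 on both arrays with it in Cy3. In sevS11 it ran from -0.68 over 0.01 to 0.57. Rbf had 1 value in sevd2 (0.31) and stood at -0.21, -0.20 and 0.07 in sevS11. E2f2 stood at -0.01 on 1 sevd2 array and at -0.35 and -0.16 in sevS11. Neither Rbf (-0.064 ± 0.13) nor E2f2 (-0.25 ± 0.12) passed in sevS11 (limma on all genes with both sevS11 extractions, adjusted p of 0.789 and 0.273).

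Of the mitotic cyclins, CycB and CycB3 had values, and neither passed a test. CycB, the cyclin that drives entry into mitosis with Cdk1, stood at -0.48 and -0.34 in sevS11 extraction 1 and at -0.23 in extraction 2. In sevd2 it had values for extraction 1 only, at -0.0020 and 0.19. All 3 sevS11 values lay below both sevd2 values, but the missing extraction left no test of the difference. Against the reference the sevS11 mean was -0.28 ± 0.12 (limma on all genes with both sevS11 extractions, adjusted p = 0.260). CycB3, a cyclin of later mitosis, stood at 0.17, 0.14, -0.00080 and 0.12 in sevd2 and at -0.17, -0.13 and 0.0049 in sevS11. The arrays of the genotypes overlapped, and its difference of -0.17 ± 0.14 did not pass (limma, adjusted p = 0.604).

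Exit from mitosis is driven by fzy and fzr, which activate the anaphase-promoting complex, and by rux, an inhibitor of cyclin A with Cdk1 that keeps eye disc cells in G1. The fzy ratios were -0.09, -0.14 and -0.19 in sevS11. In sevd2 they were -0.20 and -0.18 with mutant RNA in Cy5 and 0.02 and 0.04 with it in Cy3. The difference of fzy was -0.038 with an interval of -0.36 to 0.28. The rux gene stood at -0.15, -0.08, 0.31 and 0.06 in sevd2 and at -0.32 and 0.15 in sevS11, with extractions of opposite sign in both genotypes. For fzr there were only 2 values, 0.03 and 0.01, both in sevS11.

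Separation of sister chromatids gave the one call of the set. Securin, the product of pim, holds separase (encoded by thr) inactive until anaphase. In sevS11 pim stood at -0.62 on the Cy5 array of extraction 1 and at -0.62 on the array of extraction 2, with no value on the Cy3 array. In sevd2 it stood at -0.29 and -0.05 for extraction 1 and at 0.11 and 0.22 for extraction 2. Both sevS11 values lay below all 4 sevd2 values. Extraction 2 became -0.53 after the dye correction, which for pim came from the sevd2 pairs alone (-0.089). The sevS11 mean was -0.58 ± 0.12, a fall that passed narrowly (limma, adjusted p = 0.0495, 2 of 2 arrays below 0). The sevd2 mean was -0.0052 ± 0.12. The difference of -0.57 ± 0.16, with a 95% interval of -0.98 to -0.17 before adjustment, did not pass (limma, adjusted p = 0.272). The sevS11 call ended in 13 of 24 other settings, among them no dye correction (limma, adjusted p = 0.0506), with values of -0.62 to -0.42 over all 24 and adjusted p of 0.00699 to 0.118. It ended without sevd2 replicate 4 (-0.56), sevd2 extraction 1 (-0.59) or sevd2 extraction 2 (-0.56). It also ended without sevS11 replicate 2 (-0.53), an array with no pim value, because extraction 1 was then dye corrected as a single array. Without sevS11 replicate 1 the gene had no value for extraction 1.

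The separase gene thr had 2 sevd2 values of 0.21 and 0.09 and 1 sevS11 value of -0.15. Condensin, which compacts chromosomes, is represented by SMC2 and barr. SMC2 was above 0 on all 7 arrays, between 0.0014 and 0.22 in sevd2 and between 0.06 and 0.23 in sevS11. Its means of 0.088 in sevd2 and 0.089 in sevS11, each ± 0.10, gave a difference of 0.0011 with an interval of -0.35 to 0.35. The barr ratios were 0.21 and 0.15 in sevd2 extraction 1 and 0.26, 0.09 and 0.11 in sevS11.

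**Figure D2:**
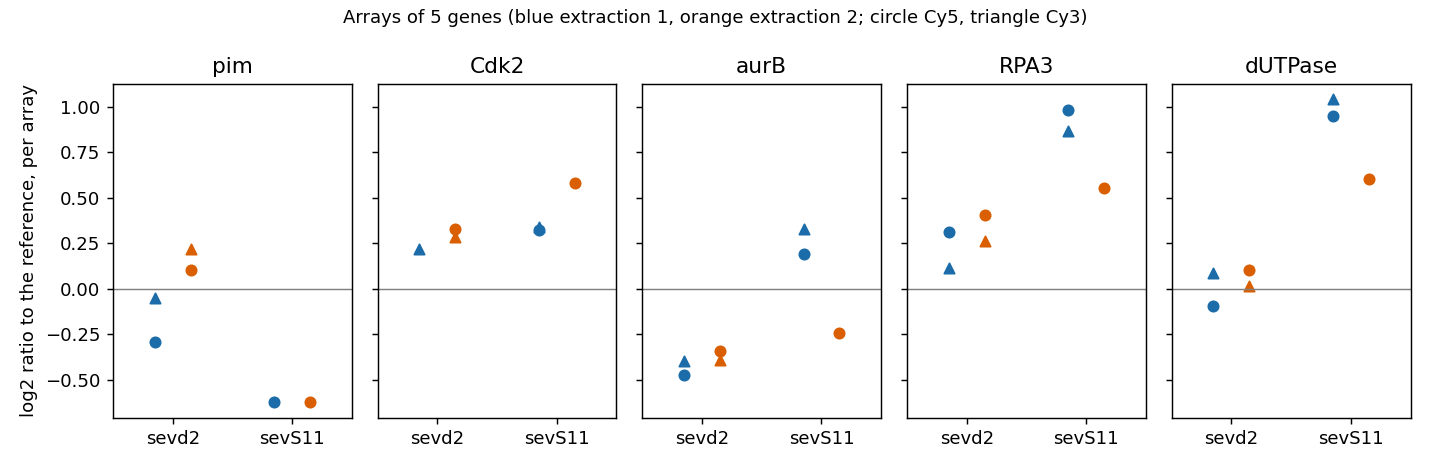
Log2 ratio to the reference per array (y axis) for pim, Cdk2, aurB, RPA3 and dUTPase in sevd2 and sevS11 discs (x axis). Blue marks extraction 1 and orange extraction 2, circles mark mutant RNA in Cy5 and triangles mutant RNA in Cy3; pim, RPA3 and dUTPase passed the limma test in sevS11, and aurB lies at opposite signs in the sevS11 extractions.

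The kinase aurB and its partner Incenp form the core of the chromosomal passenger complex, which corrects attachments at centromeres and acts in cytokinesis. In sevd2 aurB was the lowest member, at -0.47 and -0.40 for extraction 1 and at -0.34 and -0.39 for extraction 2. In sevS11 it stood at 0.19 and 0.33 for extraction 1 but at -0.24 for extraction 2. All 4 sevd2 values lay below the 3 sevS11 values. The sevd2 mean was -0.40 ± 0.14 (limma, unadjusted p = 0.0269, adjusted p = 0.405, 4 of 4 arrays below 0) and did not pass. It passed with arrays scaled to 1 median absolute value (-0.52, limma adjusted p = 0.0481), where 179 of all genes passed in sevd2. The difference of 0.42 ± 0.19, with an interval of -0.05 to 0.90, did not pass (adjusted p = 0.417). Incenp stood at -0.12, -0.44, -0.02 and -0.18 in sevd2 and at 0.05, 0.37 and -0.03 in sevS11. Its extractions did not overlap between the genotypes, and the difference of 0.26 ± 0.16 did not pass (limma, adjusted p = 0.514). With replicate 3 of sevS11 left out, and with it extraction 2, the differences were 0.66 for aurB and 0.40 for Incenp, in a fit where sevS11 kept a single extraction.

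The spindle checkpoint genes were above 0 on every array with a value. Bub3 stood at 0.13, 0.05 and 0.13 in sevd2 and at 0.30, 0.35 and 0.13 in sevS11. The other checkpoint gene, mad2, stood at 0.25 and 0.05 in sevd2 and at 0.45 and 0.05 in sevS11. In both genotypes extraction 1 was the higher for these genes. The sevS11 means were 0.24 ± 0.10 for Bub3 (limma, adjusted p = 0.194) and 0.25 ± 0.13 for mad2 (adjusted p = 0.289), and neither passed.

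S phase and mitotic genes were then set side by side. In sevS11 the median was -0.010 over 13 S phase members and 0.022 over 9 mitotic members, beside -0.0040 over all tested genes. In sevd2 these medians were -0.025, 0.038 and 0.010. For sevS11 minus sevd2 they were 0.088, 0.0010 and -0.015, with 9 of 13 S phase members and 5 of 9 mitotic members above 0, where 47.8% of all genes were. By extraction, the S phase median was -0.023 and -0.100 in sevd2 and -0.013 and -0.014 in sevS11. The mitotic median was -0.090 and 0.048 in sevd2 and 0.170 and 0.0070 in sevS11. The mitotic median thus changed sign between the sevd2 extractions and was higher in extraction 1 of sevS11, while the S phase median was below 0 in every extraction. Over all tested genes the median was 0.008 in both sevd2 extractions, and -0.033 and 0.005 in those of sevS11. In sevS11 extraction 1 the S phase median therefore lay above that of all genes. Gene by gene, the median gap between the sevS11 extractions was 0.215 for S phase members and 0.177 for mitotic members. These lists are described by counts and medians, with no test.

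**Figure D3:**
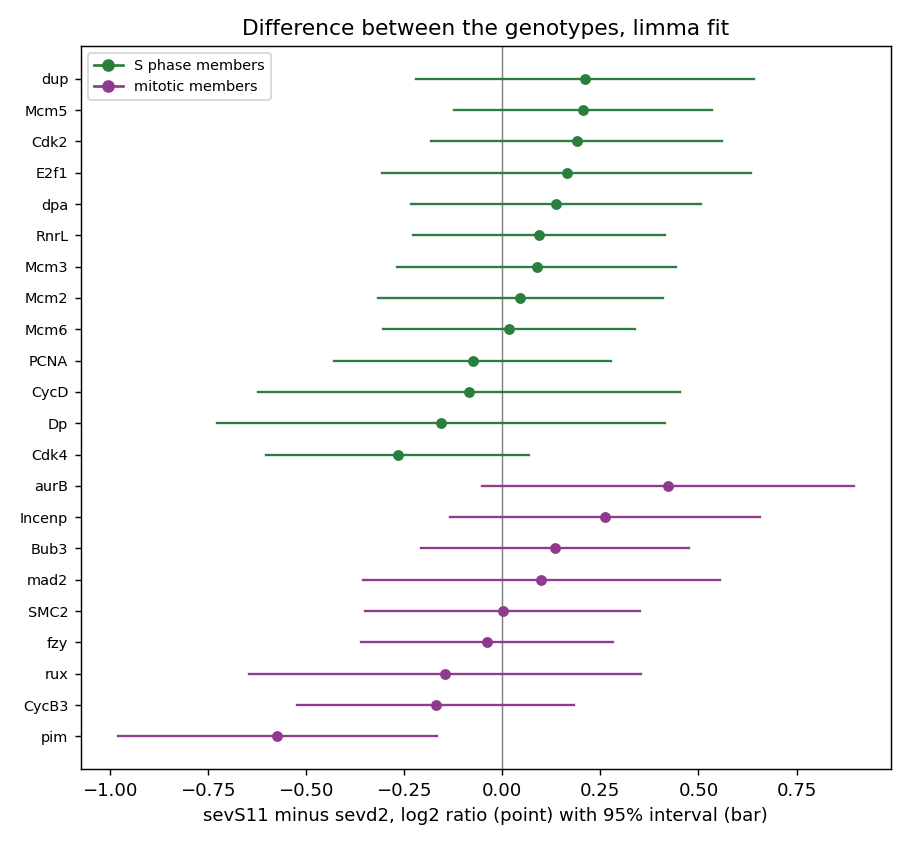
Difference between the genotypes, sevS11 minus sevd2, in log2 units (x axis) for the 22 tested members (y axis), with S phase members in green above mitotic members in purple. Points are limma estimates and bars are 95% intervals before adjustment; the interval of pim, -0.98 to -0.17, is the one that does not include 0.

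Whether the extractions of the genotypes overlapped was counted for the 22 tested members. In 7 (aurB, Bub3, Cdk2, Incenp, Mcm5, Mcm6 and RnrL) both sevS11 extractions lay above both sevd2 extractions, where 22.3% of all tested genes did. In 4 (Cdk4, CycB3, fzy and pim) both lay below, where 26.7% of all genes did. The members' counts are near these backgrounds. The sevS11 extractions had opposite signs for 10 of 22 members, against 39.5% of all genes, and the sevd2 extractions for 5 of 22, against 26.4%. The median gap between the extractions of the members was 0.209 in sevS11 and 0.078 in sevd2, beside 0.258 and 0.089 over all genes. The members CycD, Dp and rux were among those whose sevS11 extractions pointed in opposite directions.

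Other genes of the same pathways were taken from lists of replication, mitotic, checkpoint and regulator genes. Of 22 tested replication genes outside the members, 2 rose in sevS11 and 0 fell, where 2.18% and 3.6% of all genes did. The genes that rose were dUTPase and RPA3. The dUTPase enzyme removes dUTP from the nucleotide pool, and its gene stood at 0.95 and 1.04 in sevS11 extraction 1 and at 0.60 in extraction 2. In sevd2 it stood at -0.09, 0.09, 0.11 and 0.02. All 3 sevS11 values lay above all 4 sevd2 values, and the sevS11 mean was 0.82 ± 0.12 (limma, adjusted p = 0.0265, 3 of 3 arrays above 0), which passed in all 26 other settings. RPA3, a subunit of the single-stranded DNA binding protein RPA, stood at 0.98, 0.87 and 0.56 in sevS11 and at 0.31, 0.11, 0.41 and 0.27 in sevd2. Its sevS11 mean was 0.70 ± 0.13 (limma, adjusted p = 0.0418, 3 of 3 arrays above 0), and the call ended with scaling (0.50), with quantile normalisation (0.49) and without sevS11 replicate 1 (0.71). Neither gene passed in the difference (0.79 ± 0.17 for dUTPase and 0.43 ± 0.19 for RPA3, limma adjusted p of 0.180 and 0.412). The thymidylate synthase gene Ts stood next to them without passing, at 0.75, 0.53 and 0.51 in sevS11 (limma, adjusted p = 0.0504).

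As a list, the 22 replication genes had a median of 0.145 in sevS11, with 17 above 0, beside -0.0040 and 49.3% above 0 over all genes. In sevd2 the median was -0.029 with 7 above 0, beside 0.010 and 52.6%. For sevS11 minus sevd2 it was 0.198 with 19 above 0, beside -0.015 and 47.8%. The sevS11 medians were 0.241 in extraction 1 and 0.055 in extraction 2, and 7 of 22 genes had opposite signs in the extractions. Under 25 other settings the sevS11 median of this list ranged from 0.084 to 0.248, and it was not tested as a set. The 5 MCM genes, by comparison, had a sevS11 median of -0.120.

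**Figure D4:**
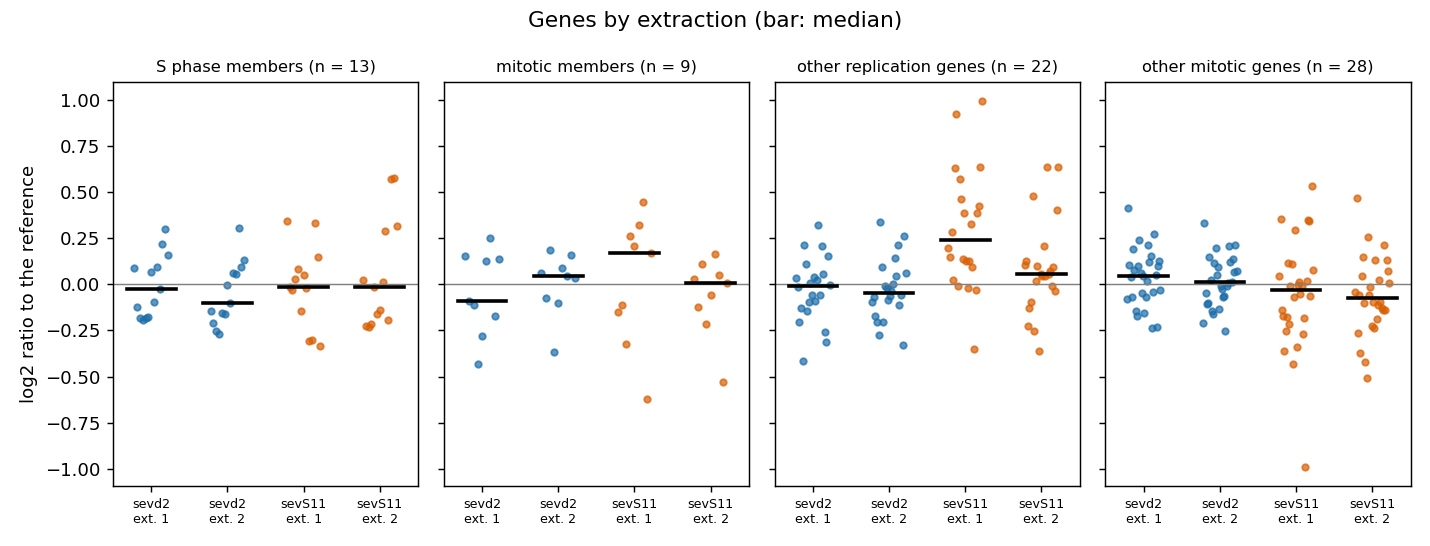
Log2 ratio to the reference (y axis) of tested genes in each RNA extraction (x axis; sevd2 in blue, sevS11 in orange), for 13 S phase members, 9 mitotic members, 22 other replication genes and 28 other mitotic genes. Each point is 1 gene and the bar is the median, which for the other replication genes is 0.241 and 0.055 in the sevS11 extractions and -0.009 and -0.046 in those of sevd2.

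Of 28 tested mitotic genes outside the members 0 passed in sevS11, sevd2 or the difference, where 5.77%, 0.0837% and 0.0558% of all genes did. At an unadjusted limma p under 0.05 they numbered 5, 1 and 0, where 25.3%, 9.76% and 12.7% of all genes lay. The medians of the 28 genes were -0.060, 0.027 and -0.066. The kinesin-5 gene Klp61F was above 0 on all 6 arrays with a value, with means of 0.41 ± 0.10 in sevS11 and 0.37 ± 0.10 in sevd2 (limma, adjusted p of 0.072 and 0.268). Cdc27, a subunit of the anaphase-promoting complex, stood at -0.37, -0.35 and -0.47 in sevS11 (limma, adjusted p = 0.0842). Among 6 tested checkpoint and repair genes 0 passed, with 1 at an unadjusted limma p under 0.05 in sevS11 and 0 in sevd2. These counts stand beside the same shares of all genes. Among 14 other regulators 1 fell in sevS11, where 3.6% of all genes did, namely the cullin gene Cul1 of the SCF ubiquitin ligase. It stood at -0.57 and -0.36 on the 2 sevS11 arrays with a value (mean -0.53 ± 0.10 after dye correction, limma adjusted p = 0.0409). The correction changed extraction 2 alone, to -0.49, and its dye effect came only from the sevd2 pair of extraction 1. The Cul1 call ended in 8 of 23 other settings, with values of -0.59 to -0.41 over all 23. It ended at -0.46 without sevd2 replicate 1, sevd2 replicate 2 or sevd2 extraction 1, where no dye effect was left to subtract. It also ended, at -0.53, without sevd2 extraction 2.

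Markers of other cells were set beside these values. Of 7 tested blood cell genes 3 rose in sevS11 (PPO1, PPO2 and He), where 2.18% of all genes did. In sevS11 5 of the 7 lay above 0, and NimC1 (-0.25) and SPARC (-0.24) lay below 0. All 7 of 7 lay higher in sevS11 than in sevd2, where 47.8% of all genes did. The list medians were 0.373 (-0.25 to 1.75) in sevS11 and -0.785 (-1.01 to 0.051) in sevd2. The list was chosen with earlier results of these data known, so these counts are not independent evidence. Of 5 tested photoreceptor and neuron genes 1 rose in sevS11, and their ratios there ran from -0.51 to 0.72 with a median of 0.388, against a median of -0.175 in sevd2. None of the 3 tested glial genes passed (medians of -0.303 in sevS11 and -0.115 in sevd2), nor did any of the 3 tracheal and peripodial genes (-0.429 and 0.251). At an unadjusted limma p under 0.05, in either direction, lay 25.3% of all genes in sevS11 and 9.76% in sevd2. The blood cell genes there numbered 4 of 7 in sevS11 and 5 of 7 in sevd2. The photoreceptor and neuron genes numbered 5 of 5 and 2 of 5. The glial genes numbered 0 and the tracheal and peripodial genes 2 in sevS11, and 0 of either in sevd2. The part of these cells in the values of pim, dUTPase and RPA3 was not tested.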

How the data were processed

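The authors deposited 1 normalised value per probe and array, read here as a log2 ratio because limma, listed in the submitters' processing notes, works in base 2. The sources used here do not give the log base, direction, background correction, normalisation or filter. Of 16416 probes, 8650 had no value on any array. Probes were named from the platform annotation through current gene tables (12533 by gene identifier, 120 by accession, 511 by older symbol), and the rest stayed unnamed (101 with several genes, 3151 absent from the annotation). Probes of a gene were averaged.

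The replicate was the RNA extraction, and its arrays were averaged. A gene's dye effect, its mean over swapped pairs, was subtracted from the unswapped sevS11 array. A lone value of a gene within a swapped pair was not corrected. For 147 tested genes there was no complete pair. Whether extractions used separate animals is not stated in the labels, so p-values cover a spread that may be technical, and tests against the pool leave out its own spread. Using lmFit and eBayes of limma 3.58.1 under R 4.3.3, with 2 residual and 3.8 prior degrees of freedom, each genotype was tested against 0 and the genotypes against each other. The steps were tested on simulated data.

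The members and lists were chosen with earlier results of these data known. Values on every array were printed for members by a fixed rule (unadjusted p under 0.05, the 3 highest and lowest means, key genes and 1 member per role), and further members were added after their values were seen. Outside the members, genes that passed and up to 3 per list with low p were named. The alternatives covered dye correction, array-level fit, own extractions, centring, scaling, quantile normalisation, weights, a robust fit, missing values, single probes, the threshold, a replicate block and leaving out each array and extraction. Extractions with the same number did not deviate together (correlation -0.065 across genes), so they were not treated as pairs. No sequences are shown.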

Additional observations from a re-analysis of the deposited data

Results flagged for a closer look

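The separase gene thr was above 0 on both sevd2 arrays with a value (0.21 and 0.09) and below 0 on the single sevS11 array with one (-0.15), a difference of -0.30 between the means over arrays. The opposite signs rest on that single sevS11 array, and thr was picked out by a rule applied to these same data. How many other genes split this way by array was not counted. Between extractions, sevS11 lay wholly above sevd2 for 22.3% of all tested genes and wholly below for 26.7%, so such separation was common. The difference for thr was not tested, since sevS11 extraction 1 had no value.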

How the results depend on the processing

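The 1 member that passed in sevS11 (pim) became 0 without the dye correction, with only the genotype's own extractions, with scaling, quantile normalisation, weights, a robust fit, genes on every array (where pim was not tested), genes with both extractions, single probes, or lone arrays also dye corrected, a setting chosen after seeing the data. It became 2 (pim and Cdk2) in the array-level fit, at an adjusted p under 0.1 and with the replicate block (limma). In these settings 395, 408 and 383 of all genes passed in sevS11. In sevd2 the count of 0 became 2 (aurB and Cdk2) with only its own extractions, where 479 of all genes passed. It became 1 (aurB) with scaling, where 179 of all genes passed. With an array or extraction left out the count ran from 0 to 9 in sevS11, from 0 to 3 in sevd2 and from 0 to 5 in the difference. All these highest counts came when replicate 3 of sevS11, and with it extraction 2, was left out; there CycD stood at -0.305 and Dp at -0.336 in sevS11, and the lone sevS11 extraction is assumed to vary like sevd2. Without sevS11 extraction 1, CycD (0.30) and Dp (0.36) had the sign opposite to their means over all arrays. The causes were not tested. The gap between S phase and mitotic medians in sevS11, -0.032, was -0.186 with weights and ran from -0.188 to 0.034 with arrays or extractions left out. With the same left out, the gap ran from -0.138 to -0.003 in sevd2 (-0.063 in the reported fit). In the difference (0.087) it then ran from -0.044 to 0.168. The sevd2 gap reached 0.019 under the other settings. Of the members' single values in the other settings, 28 of 556 in sevS11, 16 of 556 in sevd2 and 33 of 512 in the difference changed sign. The MCM median stayed below 0 in sevd2 in all 25 settings run (-0.216 to -0.157). The counts over all genes, 207 in sevS11, 3 in sevd2 and 2 in the difference, were 107, 179 and 29 with scaling, 163, 145 and 25 with quantile normalisation and 395, 39 and 39 in the array-level fit; over all settings they ran from 76 to 1745, from 0 to 540 and from 0 to 1516, the top values again without sevS11 replicate 3. The values used here are ratios, so brightness over background was not assessed.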
